A study of Gallus gallus with 6 samples.

Results

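The ADAM, ADAMTS, ADAMTS-like (ADAMTSL), matrix metalloproteinase (MMP) and tissue inhibitor of metalloproteinases (TIMP) genes were examined in the great arteries of the chick embryo. Members were the genes whose symbol in the annotation of the array consisted of 1 of these names and a number. The rule found 41 probe sets of 38 genes, and the probe set that was brightest on average over the 6 arrays stood for its gene. There were 8 ADAM, 15 ADAMTS, 3 ADAMTSL, 11 MMP genes and 1 TIMP gene, *timp3*, out of 11528 genes with a single symbol and 20804 probe sets in all. The rule used names and overall brightness and no difference between tissues.

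Expression was measured at the internal pipping (IP) stage, which precedes the opening of the eggshell, in untreated chick embryos of the Hypeco Nera breed. The ductus arteriosus (DA) on the right side was divided into a proximal part next to the pulmonary artery (labelled pulmonary-sided) and a distal part next to the descending aorta (labelled aorta-sided), and the aorta was sampled as the third tissue. Each tissue had 2 arrays. The input of an array was 100 ng of total RNA, extracted from pooled tissue of several embryos, so the values are averages over embryos and over all cell types of the vessel wall. Whether the pair of arrays of a tissue represents separate pools is not stated in the sources, and the p-values therefore rest on a spread between arrays that may be technical.

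Metalloproteinases of these families are zinc enzymes that cut proteins outside the cell. ADAMs are anchored in the membrane and release the outer parts of receptors, adhesion molecules and growth factors, although some of them lack a working zinc site and act as adhesion or ligand-binding proteins. ADAMTS enzymes are secreted into the matrix and cut proteoglycans, procollagens and other matrix proteins, and ADAMTS-like proteins resemble them without the protease domain. MMPs cut collagens, elastin and basement membranes, and TIMPs inhibit MMPs and, for TIMP3, also several ADAM and ADAMTS enzymes. In arteries these enzymes are known for their part in remodelling of the vessel wall, of which closure of the DA is an example.

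All values are log2 values after robust multi-array average (RMA) processing, on which a step of 1 stands for a doubling of intensity. The 6 arrays had medians of 6.61 to 6.66 and lower quartiles of 5.25 to 5.41. The values carry no detection call, so values below the lower quartile were treated as not distinguishable from background. Precision is limited by the small number of arrays. Of the 38 members, 7 lay below the lower quartile on every array, *adam20*, *adamts13*, *adamts18*, *mmp1*, *mmp10*, *mmp13* and *mmp27*, and 2 lay below it on some arrays, *mmp7* on 5 and *adamts20* on 1. The other 29 were above it on every array. Brightness was not compared between genes, since probes differ in their response.

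The 3 tissues were compared in 1 limma fit of all probe sets, and a gene was called higher or lower at a Benjamini-Hochberg adjusted p under 0.05 over all 20804 probe sets. In the proximal DA, 4 of 38 members were called higher than in the aorta, *adam33*, *adamts1*, *adamts9* and *adamtsl1*, and 4 were called lower, *adamts8*, *adamts15*, *adamts19* and *adamtsl3*. With pooled tissue, fewer cells of a type and less RNA per cell cannot be told apart in any of these differences. Over all probe sets, the calls came to 3.33% higher and 2.34% lower in this comparison. All probe sets include repeated ones for the same gene, unlike the members, while dim ones occur in both. Of the 11528 genes with a single symbol, each by its brightest probe set, 528 were called higher and 312 lower. In the distal DA, 2 members were called higher than in the aorta, *adamts17* and *adamtsl1*, against 0.952% of all probe sets, and 1 was called lower, *adamts8*, against 0.644%. Between the proximal and the distal DA, 0 of 38 members were called in either direction by limma, against 0.159% of all probe sets called higher and 0.0913% called lower. At an unadjusted p under 0.05, the proximal DA had 1 member above and 6 below the distal DA of 38, against 3.95% and 3.36% of all probe sets. All 9 members called in any comparison belonged to the ADAM, ADAMTS and ADAMTSL families, and 0 of 11 MMP genes were called by limma in any of the 3 comparisons. For 11 genes, 0 calls is near the shares of all probe sets, and 4 of the 11 lay below the lower quartile on every array. A difference between the families was therefore not shown.

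The same count can be taken without a test, from whether the arrays of the tissues overlapped. The proximal DA arrays lay both above or both below the aorta arrays for 24 of 38 members (63.2%), 14 above and 10 below, against 42.2% of all probe sets. The distal DA arrays did so for 22 members (57.9%), 14 above and 8 below, against 39.7% of all probe sets. The proximal and distal DA did not overlap for 17 members (44.7%), of which the proximal DA was above in 5 and below in 12, against 32.7% of all probe sets. Relative to the aorta, the members had a median log2 difference of 0.12 (proximal DA) and 0.09 (distal DA), beside -0.015 and -0.005 over all probe sets, so the members did not lean far to either side. The median size of the difference regardless of sign was 0.300 and 0.268, beside 0.180 and 0.145 over all probe sets. Over the genes with a single symbol, chosen by brightness like the members, it was 0.175 and 0.135. Both comparisons with the aorta share the aorta arrays. The mean of the distal DA lay between those of the other tissues for 18 of 38 members (47.4%), beside 47.2% of all probe sets.

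**Figure D1:**
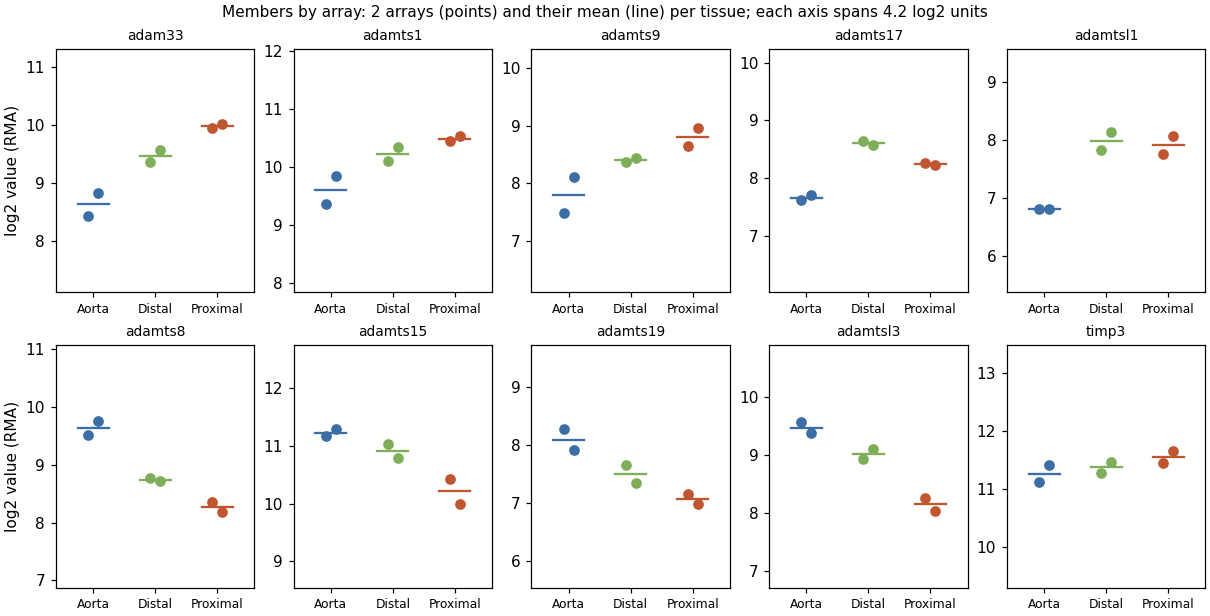
Log2 values (vertical axes, RMA) of the 9 members called in any comparison and of *timp3* in the aorta, the distal DA and the proximal DA. Points are the 2 arrays of a tissue and lines their mean. In *adamts8*, *adamts15*, *adamts19* and *adamtsl3* all proximal DA values lie below all aorta values, and in *adam33*, *adamts1*, *adamts9*, *adamts17* and *adamtsl1* all lie above.

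Among the ADAMs with a working zinc site, *adam33* stood apart in the comparison with the aorta. ADAM33 is made by mesenchymal and smooth muscle cells in mammals and is known from genetic studies of airway hyperresponsiveness in humans. Its log2 values were 8.42 and 8.83 in the aorta, 9.36 and 9.56 in the distal DA and 9.94 and 10.01 in the proximal DA. The 3 tissues did not overlap, and the distal DA lay between the other tissues. The proximal DA was higher than the aorta by 1.35 (SE 0.18, n = 2 arrays per tissue, limma adjusted p = 0.00601), or 2.55-fold. The difference of the distal DA from the aorta was 0.84 (limma adjusted p = 0.0835), and that of the proximal from the distal DA was 0.52 (95% interval 0.10 to 0.93, limma adjusted p = 0.487). Without proximal DA replicate 2, *adam33* was not called in the proximal DA (1.32, limma adjusted p = 0.0563), and over only the brighter share of 0.5 of the probe sets it was also called in the distal DA (limma adjusted p = 0.0396).

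The other ADAMs were not called in any comparison. ADAM10 and ADAM17 are the main sheddases of the cell surface, ADAM10 for Notch receptors and cadherins and ADAM17 for tumour necrosis factor and ligands of the epidermal growth factor receptor. The values of *adam10* were 8.27 and 8.39 in the aorta, 8.44 and 8.73 in the distal DA and 8.60 and 8.87 in the proximal DA. Both parts of the DA thus lay above the aorta on every array, with a difference of 0.41 (95% interval 0.01 to 0.80, limma adjusted p = 0.263) in the proximal DA. For *adam17* the tissues overlapped, and the proximal DA differed from the aorta by 0.12 (95% interval -0.29 to 0.52). *adam12*, whose product sheds growth factors in muscle and mesenchyme, was the lowest of its family against the aorta, with differences of -0.20 in the proximal and -0.16 in the distal DA. *adam15* overlapped between all tissues, and *adam20* lay below the lower quartile on every array. Of the ADAMs without a working zinc site, *adam11* differed from the aorta by 0.34 (proximal DA) and 0.35 (distal DA), and *adam23* by -0.09 and 0.08.

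The ADAMTS enzymes that cut proteoglycans such as versican and aggrecan went in opposite directions in the proximal DA. Of 5 members, *adamts1* and *adamts9* were called higher than in the aorta, *adamts8* and *adamts15* were called lower, and *adamts20* was not called. ADAMTS1 and ADAMTS9 cut versican in the developing heart and vessels of mammals. The values of *adamts1* were 9.35 and 9.85 in the aorta, 10.10 and 10.35 in the distal DA and 10.44 and 10.53 in the proximal DA. Those of *adamts9* were 7.49 and 8.11 in the aorta, 8.37 and 8.44 in the distal DA and 8.64 and 8.96 in the proximal DA. In both genes every array of the DA lay above the aorta, every proximal array lay above every distal array, and the aorta arrays were far apart. The proximal DA was higher by 0.89 (SE 0.20, limma adjusted p = 0.0458) for *adamts1* and by 1 (SE 0.22, limma adjusted p = 0.0470) for *adamts9*, and the distal DA differed by 0.63 (limma adjusted p = 0.255) and 0.61 (limma adjusted p = 0.361). Both calls in the proximal DA were close to the threshold. Each was kept without aorta replicate 2 and was not called when any 1 of the other 5 arrays was left out, with limma adjusted p = 0.0737 to 0.178 for *adamts1* and 0.0828 to 0.198 for *adamts9*, and each was lost when the proximal DA and the aorta were fitted alone.

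*adamts8* and *adamts15* are neighbouring genes in the GRCg7b assembly of the chicken genome, and both were called lower in the proximal DA. ADAMTS8 and ADAMTS15 belong to the same branch of the family as ADAMTS1 and cut aggrecan or versican in mammals. The values of *adamts8* were 9.51 and 9.76 in the aorta, 8.77 and 8.72 in the distal DA and 8.35 and 8.19 in the proximal DA. Those of *adamts15* were 11.16 and 11.29 in the aorta, 11.03 and 10.79 in the distal DA and 10.43 and 10 in the proximal DA. The tissues did not overlap in either gene, and the order was the aorta, the distal DA and the proximal DA from high to low. *adamts8* was lower than in the aorta in the proximal DA, with a log2 difference of -1.37 (SE 0.15, limma adjusted p = 0.00304), which is 0.388 times the intensity, and in the distal DA, with -0.89 (limma adjusted p = 0.0384). The call in the proximal DA was kept under all 14 alternatives, while that in the distal DA was kept under 3. The distal DA call was lost without any 1 of the 6 arrays, with log2 differences of -1.015 to -0.765. It was also lost under quantile normalization, cyclic loess and the replicate block (limma adjusted p = 0.0574, 0.0656 and 0.0629). The same held when the distal DA and the aorta were fitted alone (limma adjusted p = 0.0697) and with a log2 difference of at least 1.

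For *adamts15* the proximal DA was below the aorta by a log2 difference of -1.01 (SE 0.19, limma adjusted p = 0.0221), and its difference in the distal DA was -0.32 (limma adjusted p = 0.660). Between the parts of the DA its difference was -0.70 (95% interval -1.13 to -0.26, limma adjusted p = 0.298). The call in the proximal DA was lost without aorta replicate 2 (limma adjusted p = 0.0837), without proximal DA replicate 2 (limma adjusted p = 0.107) and under quantile normalization (limma adjusted p = 0.0552). The fifth member of this group, *adamts20*, had proximal DA values of 6.50 and 5.47, the widest gap between replicate arrays of any member in that tissue at 1.03. Its other values were 5.50 and 5.70 in the aorta and 5.62 and 5.28 in the distal DA, so the tissues overlapped and its interval against the aorta ran from -0.35 to 1.12.

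*adamts17* and *adamts19*, a pair of closely related ADAMTS genes, also differed from the aorta in opposite directions. Loss of ADAMTS17 in humans causes a short stature syndrome with fibrillin involvement, and loss of ADAMTS19 causes heart valve disease. The values of *adamts17* were 7.62 and 7.71 in the aorta, 8.65 and 8.57 in the distal DA and 8.26 and 8.23 in the proximal DA. The distal DA was higher than the aorta by 0.95 (SE 0.13, limma adjusted p = 0.0198), and the difference of the proximal DA was 0.58 (limma adjusted p = 0.0524). All 3 tissues were apart on every array, with the distal DA highest, and the proximal minus the distal DA was -0.37 (95% interval -0.68 to -0.05, limma adjusted p = 0.542). The call in the distal DA was lost without either aorta or either distal DA array (limma adjusted p = 0.0624 to 0.181), and in the proximal DA the gene was called under 3 alternatives, cyclic loess, the robust fit with a trend and the brighter probe sets (limma adjusted p = 0.0436, 0.0497 and 0.0290).

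The values of *adamts19* were 8.28 and 7.91 in the aorta, 7.65 and 7.35 in the distal DA and 7.15 and 6.99 in the proximal DA. Each tissue lay wholly below the one before it. The proximal DA was lower than the aorta, at a log2 difference of -1.03 (SE 0.18, limma adjusted p = 0.0203), and the difference of the distal DA was -0.60 (limma adjusted p = 0.247). Without aorta replicate 1, proximal DA replicate 1 or proximal DA replicate 2 the call was lost (limma adjusted p = 0.0686, 0.0754 and 0.121).

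The remaining ADAMTS enzymes were not called in any comparison. The procollagen N-proteinases trim fibrillar procollagens before fibres form. *adamts2* differed from the aorta by -0.18 (proximal DA) and -0.13 (distal DA), with 95% intervals of -0.51 to 0.15 and -0.45 to 0.20, and *adamts3* by 0.30 and 0.53. ADAMTS6 and ADAMTS10 are tied to fibrillin microfibrils. *adamts10* had values of 8.24 and 8.43 in the aorta, 7.56 and 7.60 in the distal DA and 7.80 and 7.79 in the proximal DA. Its distal DA arrays were the lowest, and the difference from the aorta of -0.76 (limma adjusted p = 0.0517) just missed the threshold. For *adamts6* the proximal DA differed by -0.50 (limma adjusted p = 0.137), and the distal DA, whose arrays overlapped those of the aorta, by -0.12 (limma adjusted p = 0.892). ADAMTS7 and ADAMTS12 cut cartilage oligomeric matrix protein. The distal DA values of *adamts12*, 6.42 and 7.17, were the farthest apart of any member in that tissue and lay above all other arrays, at 0.89 (95% interval 0.19 to 1.58, limma adjusted p = 0.296) from the aorta, whereas *adamts7* overlapped between all tissues.

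The ADAMTS-like genes differed from the aorta in opposite directions as well. ADAMTSL1 and ADAMTSL3 are secreted matrix glycoproteins without protease activity. The values of *adamtsl1* were 6.82 and 6.82 in the aorta, 7.84 and 8.14 in the distal DA and 7.76 and 8.07 in the proximal DA. Both parts of the DA lay above the aorta and overlapped each other. *adamtsl1* was higher than in the aorta by 1.10 (SE 0.17, limma adjusted p = 0.0120), or 2.14-fold, in the proximal DA and by 1.17 (limma adjusted p = 0.0225), or 2.25-fold, in the distal DA, and the interval for the proximal minus the distal DA was -0.48 to 0.33. The call in the proximal DA was lost without proximal DA replicate 2 (0.94, limma adjusted p = 0.0778), and that in the distal DA without either aorta or either distal DA array (limma adjusted p = 0.0668 to 0.172).

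The values of *adamtsl3* were 9.58 and 9.38 in the aorta, 8.93 and 9.11 in the distal DA and 8.27 and 8.04 in the proximal DA. The tissues did not overlap, and the distal DA was nearer to the aorta. The proximal DA was lower than the aorta by a log2 difference of -1.33 (SE 0.16, limma adjusted p = 0.00431), which is 0.399 times the intensity, and this call was kept under all 14 alternatives. The distal DA differed from the aorta by -0.46 (limma adjusted p = 0.323), and the proximal from the distal DA by -0.87 (95% interval -1.24 to -0.49, limma adjusted p = 0.115), the lowest value of any member in that comparison. The third gene, *adamtsl5*, lay above the aorta on every array of the DA, by 0.41 (proximal) and 0.37 (distal), without a call.

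**Figure D2:**
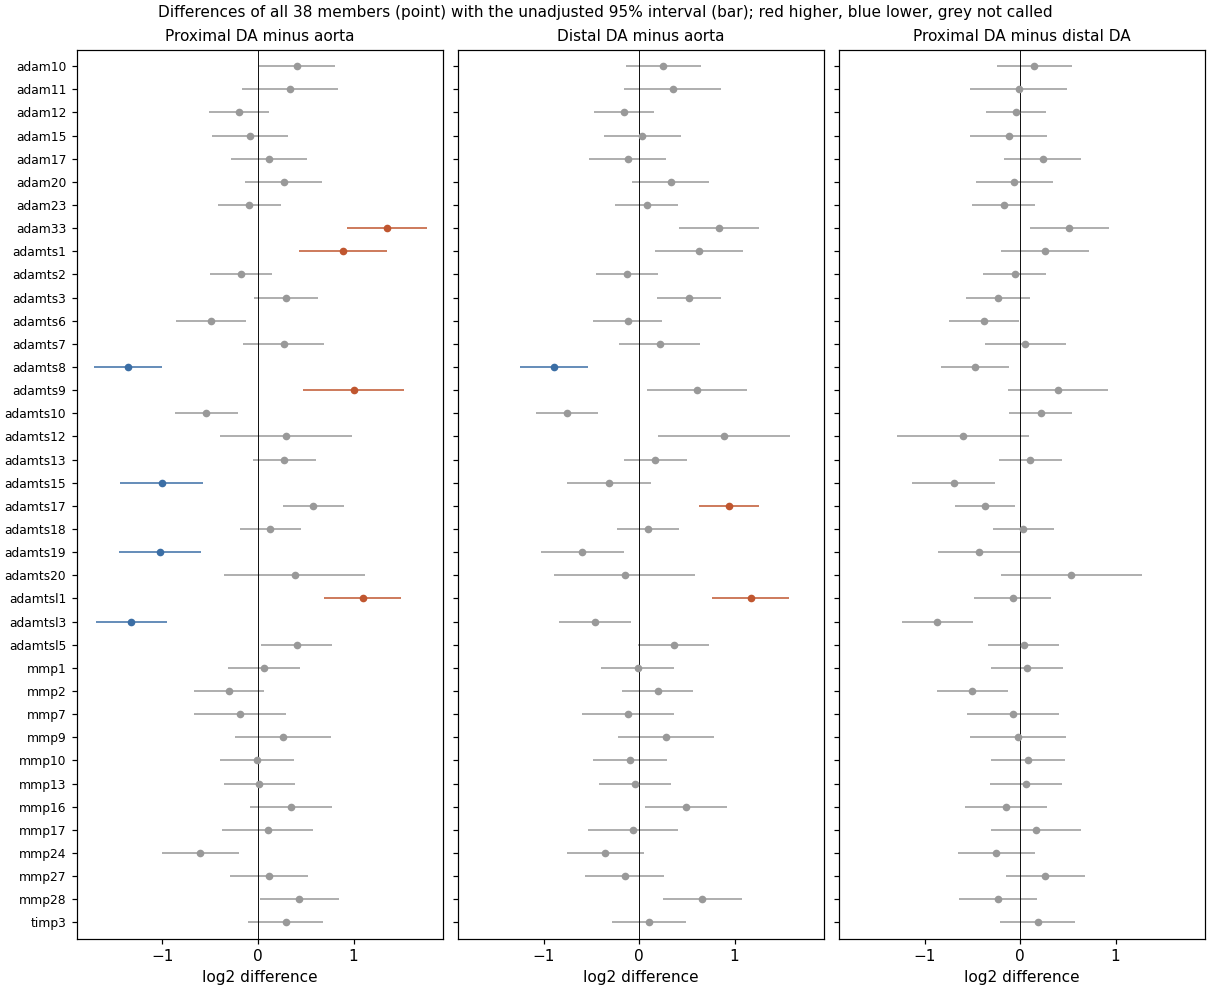
Log2 differences (horizontal axes) of all 38 members between the tissues in 3 panels, with points for the difference of the means and bars for the unadjusted 95% interval. Called members are red (higher) or blue (lower), 8 in the proximal DA against the aorta, 3 in the distal DA against the aorta and 0 between the parts of the DA.

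None of the 11 MMP genes was called, and their log2 differences from the aorta ran from -0.61 to 0.43 (proximal DA) and from -0.36 to 0.66 (distal DA). At an unadjusted p under 0.05, the proximal DA had 1 MMP gene higher and 1 lower than the aorta, and the distal DA had 2 higher. Over all probe sets the shares at this threshold were 8.39% and 9.75% in the proximal DA and 5.44% and 5.34% in the distal DA. In the proximal DA, 1 of 11 in each direction was near the background. In the distal DA, 2 of 11 higher was above that share, though too small a count to weigh, and 0 were lower. By the same measure 1 was lower in the proximal DA when set against the distal DA, beside 3.36% of all probe sets. The gelatinase *mmp2*, which cuts denatured collagen and basement membrane collagen, had values of 11.79 and 11.51 in the aorta, 11.78 and 11.91 in the distal DA and 11.27 and 11.42 in the proximal DA. The proximal DA arrays were the lowest, and the differences of the proximal DA were -0.31 (95% interval -0.68 to 0.07) from the aorta and -0.50 (95% interval -0.87 to -0.13, limma adjusted p = 0.407) from the distal DA. The other gelatinase, *mmp9*, which in mammals comes largely from leukocytes, overlapped between all tissues. Its interval for the proximal DA against the aorta was -0.24 to 0.76.

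Among the membrane-type MMPs, *mmp24* had the lowest difference of the family in each comparison with the aorta, -0.61 (limma adjusted p = 0.102) and -0.36 (limma adjusted p = 0.545). *mmp16*, whose product activates the MMP2 precursor, was on the high side, with 0.35 in the proximal and 0.49 in the distal DA, and *mmp17* overlapped. *mmp28*, which encodes epilysin, a secreted MMP of epithelia in mammals, had values of 7.24 and 7.64 in the aorta, 8.01 and 8.19 in the distal DA and 7.93 and 7.81 in the proximal DA. Both parts of the DA lay above the aorta, by 0.43 (limma adjusted p = 0.253) and 0.66 (limma adjusted p = 0.164). The secreted MMPs *mmp13*, *mmp10*, *mmp1*, *mmp27* and *mmp7*, which include the collagenases and in part lie beside each other in the genome, had no value above 5.40 on any array. Apart from *mmp7* on 1 array these were below the lower quartile, so no level of these genes was distinguishable from background in any of the tissues. *timp3* encodes the inhibitor that binds to the matrix, and its values were 11.12 and 11.41 in the aorta, 11.28 and 11.46 in the distal DA and 11.45 and 11.66 in the proximal DA. The proximal DA lay above the aorta on each array and the distal DA overlapped with both, with differences from the aorta of 0.29 (95% interval -0.10 to 0.68, limma adjusted p = 0.436) and 0.11 (95% interval -0.29 to 0.50).

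Several probe sets close to the rule need their names stated with their values. Probe set 15449411 is the dimmer of the pair named *adam11* in the annotation of the array and has no gene ID there. The tables of the study list it as *adam22* with a gene ID, so the names conflict and its gene was not settled here. The study listed this probe set for its low ratio of the proximal to the distal DA on the same arrays, so its difference is not independent of that choice. ADAM22 is an ADAM without a working zinc site that binds the secreted protein LGI1. The values of this probe set were 6.76 and 7.27 in the aorta, 7 and 7.48 in the distal DA and 6.01 and 6.03 in the proximal DA. The proximal DA arrays were the lowest. The proximal DA was lower than the aorta, at a log2 difference of -0.995 (limma adjusted p = 0.0475), its difference from the distal DA was -1.22 (95% interval -1.74 to -0.70, limma adjusted p = 0.113), and the distal DA differed from the aorta by 0.23. The call was lost under quantile and cyclic loess normalization (limma adjusted p = 0.0597 and 0.0590) and without aorta replicate 2, proximal DA replicate 1 or proximal DA replicate 2 (limma adjusted p = 0.165, 0.187 and 0.170). The brighter probe set 15551225, which carries the gene ID of *adam11*, gave 7.50 and 7.02 in the aorta, 7.80 and 7.42 in the distal DA and 7.72 and 7.47 in the proximal DA, and thus did not share this pattern.

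Probe set 15432843 lies outside the rule. The annotation and RefSeq name its gene *smarcb1*, a chromatin remodelling subunit, with *mmp11* as an older symbol in RefSeq, and the tables of the study list it as *mmp11*, the gene of stromelysin 3, an MMP of remodelling stroma. Its values were 6.57 and 6.97 in the aorta, 8.44 and 8.40 in the distal DA and 9.64 and 10.25 in the proximal DA. The 3 tissues were apart on every array. It exceeded the aorta by 3.18 (SE 0.23, limma adjusted p = 0.000658), or 9.03-fold, in the proximal DA and by 1.65 (limma adjusted p = 0.0189), or 3.14-fold, in the distal DA. The study chose to name this gene from the same arrays, so its difference is not independent of that choice. The call in the proximal DA was kept without any 1 of the 6 arrays, and that in the distal DA was lost without aorta replicate 1 or either distal DA array (limma adjusted p up to 0.128). Probe set 15432852, which carries both symbols, differed by -0.15 and -0.07, so the pattern was not shared by the second probe set at this pair of genes.

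The other repeated symbols were *adamtsl1* and *mmp9*. The dimmer probe set of *adamtsl1*, 15559076, was called higher in the proximal DA (0.80, limma adjusted p = 0.0447) and had a difference of 0.91 (limma adjusted p = 0.0598) in the distal DA, beside 1.10 and 1.17 for the brighter. Its call in the proximal DA was lost without any 1 of the 6 arrays (limma adjusted p = 0.0505 to 0.180). The dimmer probe set of *mmp9* differed from the aorta by -0.02 and -0.01, and all tissues overlapped there as for the brighter.

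**Figure D3:**
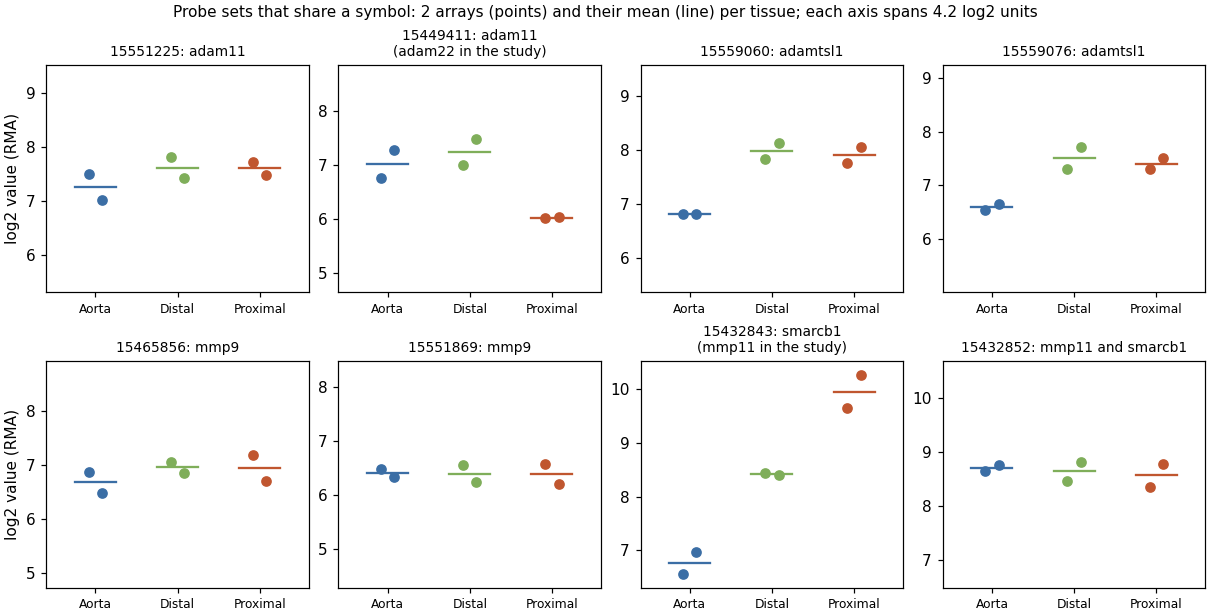
Log2 values (vertical axes, RMA) of the probe sets that share the symbols *adam11*, *adamtsl1*, *mmp9* and *mmp11* with *smarcb1*, in the aorta, the distal DA and the proximal DA. Points are the 2 arrays of a tissue and lines their mean. Both probe sets of *adamtsl1* lie above the aorta in the DA and both of *mmp9* overlap between tissues, while in the other pairs the proximal DA is apart from the aorta in 1 probe set and overlaps it in the other.

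Genes that act with these families were read from lists of partners and substrates. The lists were chosen with earlier results of these data known, so their counts are not independent of the values. The study also lists *papln* for a low ratio and *vwf* for a high ratio of the DA to the aorta on these arrays. Of 10 measured activators and plasmin system genes, 0 were called by limma in any comparison, with 2 higher in the proximal and 3 higher in the distal DA than the aorta at an unadjusted p under 0.05, beside 8.39% and 5.44% of all probe sets. Tissue plasminogen activator, *plat*, came closest in the proximal DA (0.81, limma adjusted p = 0.0618). Among 7 measured genes listed as other inhibitors, 1 was called higher and 2 lower in the proximal DA relative to the aorta. Over all probe sets these shares were 3.33% and 2.34%, and in the distal DA 0.952% and 0.644%. The serine protease inhibitor *tfpi2*, which blocks plasmin, was higher by 2.08 (limma adjusted p = 0.0245). The lower genes were *papln*, encoding papilin, a matrix protein related to ADAMTS-like proteins, at -2.43 and *pcolce2*, which enhances rather than inhibits procollagen C-proteinase, at -1.03 (limma adjusted p = 0.0214). In the distal DA, *papln* alone was called on this list, at -1.91, which was lost without distal DA replicate 2 (limma adjusted p = 0.0504). The calls of *tfpi2* and *pcolce2* were lost without aorta replicate 1 or either proximal DA array (limma adjusted p up to 0.149 and 0.119). Of 3 measured astacin and meprin genes, 0 were called by limma. At an unadjusted p under 0.05, 1 was lower in each comparison with the aorta. Over all probe sets, 9.75% (proximal DA) and 5.34% (distal DA) were lower at that threshold.

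Of 6 measured partners of ADAM10 and ADAM17, 2 were called higher and 1 lower in the proximal DA relative to the aorta. Over all probe sets these shares were 3.33% and 2.34%. The higher genes were both inactive rhomboid genes, which bring ADAM17 to the cell surface. *rhbdf1* had values of 7.84 and 7.84 in the aorta, 8.19 and 8.39 in the distal DA and 8.57 and 8.91 in the proximal DA. It was higher in the proximal DA by 0.90 (limma adjusted p = 0.0222), and *rhbdf2* by 0.77 (limma adjusted p = 0.0435), while the ADAM10-binding tetraspanin *tspan17* was lower by a log2 difference of -0.66 (limma adjusted p = 0.0473). The calls of *rhbdf2* and *tspan17* were lost without any 1 of the 6 arrays (limma adjusted p up to 0.174 and 0.178), and that of *rhbdf1* without either aorta array or proximal DA replicate 2 (limma adjusted p up to 0.109). In the distal DA, 0 of the 6 were called by limma, with 1 higher and 1 lower at an unadjusted p under 0.05.

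The 15 measured substrates of ADAM shedding had a list median of 0.43 in the proximal DA relative to the aorta. In this comparison 4 were called higher and 0 lower, beside 3.33% and 2.34% of all probe sets. They were the endothelial cadherin *cdh5*, at 1.42, the membrane-bound chemokine *cx3cl1*, at 1.51 (limma adjusted p = 0.00459), the growth factor *nrg1*, at 1.34 (limma adjusted p = 0.0360), and *notch1*, at 1.06 (limma adjusted p = 0.0170). In the distal DA, *cdh5* alone was called, at 1.04, beside 0.952% of all probe sets called higher. This call was lost without either aorta or either distal DA array (limma adjusted p up to 0.156). In the proximal DA, *nrg1* was lost without any 1 of the 4 DA arrays (limma adjusted p up to 0.176) and *notch1* without aorta replicate 1 or either proximal DA array (limma adjusted p up to 0.108). *cdh5* is an endothelial marker as well. Both measured LGI genes, which encode ligands of ADAM22 and its relatives, were not called.

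The list of ADAMTS substrates, which also holds the link protein genes *hapln1* and *hapln3*, went both ways. Of 14 listed, 11 were measured, and *vcan* (versican), *ncan* and *fbn1* (fibrillin 1) had no probe set with that single symbol. The proximal DA had 4 called higher and 3 called lower than the aorta, beside 3.33% and 2.34% of all probe sets. The distal DA had 1 called higher, beside 0.952%. *comp*, the protein cut by ADAMTS7 and ADAMTS12, had values of 6.63 and 6.79 in the aorta, 6.77 and 6.60 in the distal DA and 8.10 and 8.20 in the proximal DA. Its proximal DA values exceeded those of the aorta by 1.44 (limma adjusted p = 0.00209) and those of the distal DA by 1.47 (limma adjusted p = 0.0238), the latter lost without any 1 of the 4 DA arrays (limma adjusted p up to 0.212). The link proteins that tie versican and aggrecan to hyaluronan moved apart, with *hapln3* at 1.81 (limma adjusted p = 0.00138) and *hapln1* at -1.33 (limma adjusted p = 0.00808). *thbs1*, which encodes thrombospondin 1, was higher by 1.70 (limma adjusted p = 0.00761), and the clotting protein *vwf*, the target of ADAMTS13, by 2.47 in the proximal and 1.92 in the distal DA. The cartilage intermediate layer gene *cilp* was lower by a log2 difference of -1.96 and the fibrillin *fbn3* by -0.94 (limma adjusted p = 0.0128). The call of *thbs1* was lost without either proximal DA array (limma adjusted p up to 0.0666), that of *fbn3* without aorta replicate 2 or proximal DA replicate 2 (limma adjusted p up to 0.0805), and that of *vwf* in the distal DA without distal DA replicate 2 (limma adjusted p = 0.0504). *vwf* is an endothelial marker too.

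**Figure D4:**
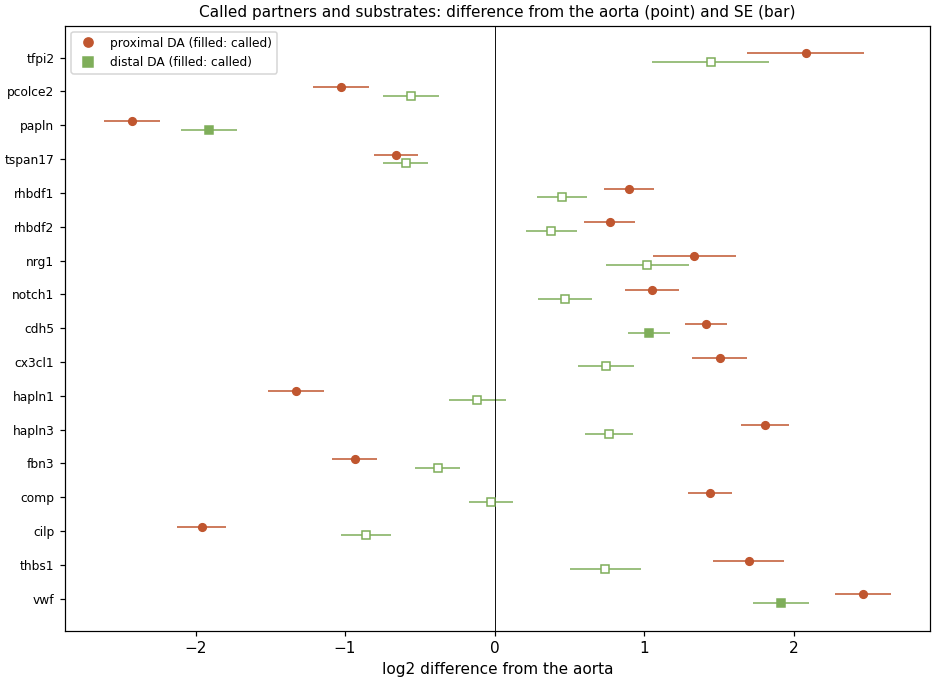
Log2 difference from the aorta (horizontal axis) of the 17 partner and substrate genes called in any comparison, in the proximal DA (circles) and the distal DA (squares), with bars for the SE. Filled symbols passed the threshold in that comparison. The genes range from *papln* at -2.43 to *vwf* at 2.47 in the proximal DA.

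Markers of the cell types in the wall also differed between the tissues, and their part in the differences of the members was not tested. The mean log2 value of 7 endothelial markers was 7.64 to 7.68 in the aorta, 8.70 to 8.73 in the distal DA and 8.87 to 9.10 in the proximal DA, and 5 of 7 were called higher in the proximal DA and 3 of 7 in the distal DA. That of 4 smooth muscle markers, out of 8 listed, was 9.32 to 9.38, 10.90 to 11.04 and 11.01 to 11.19 in the same order, with 3 and 4 called higher. That of 7 fibroblast and adventitial markers was 10.72 to 10.83, 10.49 to 10.59 and 10.10 to 10.25, with 4 called lower and 1 higher in the proximal DA, against 1 in each direction in the distal DA. Over all probe sets, 3.33% were called higher and 2.34% lower than the aorta in the proximal DA, and 0.952% and 0.644% in the distal DA.

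Of the other cell type lists, those for lung and melanocytes held markers called higher in the proximal DA. The mean of 7 lung and airway markers was 5.68 to 5.77 in the aorta, 5.70 to 5.75 in the distal DA and 6.84 to 6.98 in the proximal DA, with 3 called higher there, and 4 of the 7 lay below the lower quartile in the aorta and in the distal DA. That of 3 melanocyte markers, out of 5 listed, was 4.65 to 4.79, 4.69 to 4.83 and 6.44 to 7.59, all 3 called higher in the proximal DA and all below the lower quartile in the other tissues. Of 7 leukocyte markers and 3 red cell markers, 0 were called by limma in any comparison. At an unadjusted p under 0.05 the distal DA had 2 red cell markers above and 1 leukocyte marker below the aorta. Over all probe sets, 5.44% were above and 5.34% below it at that threshold. Of 6 listed Schwann cell and nerve markers and 4 listed mesothelial markers, 3 each were measured, and 0 of these were called by limma. *mbp* and *upk1b* of these lists had no probe set with that single symbol. The study lists both among its genes with a high ratio of the proximal to the distal DA on these arrays. At an unadjusted p under 0.05, *sox10* (0.37) and *msln* (0.57) were above the aorta in the proximal DA, beside 8.39% of all probe sets. In the proximal DA *sox10* (0.67) also exceeded the distal DA, beside 3.95% of all probe sets. Between the parts of the DA, *fbln1* of the adventitial list was lower in the proximal part (-1.14, limma adjusted p = 0.0395), and *sftpa2* of the lung list (1.73, limma adjusted p = 0.0287) and *tyr* of the melanocyte list (2.82, limma adjusted p = 0.0480) were higher. All of these calls were lost with the replicate number as a block, under which no probe set was called between the parts of the DA. The list of 5 measured cartilage markers also holds *hapln1*, its only called marker. Set against the aorta, *hapln1* was called lower in the proximal DA (-1.33, limma adjusted p = 0.00808). Between the parts of the DA it was not called (-1.215, limma adjusted p = 0.0679). The defining cartilage gene *acan* had values of 4.93 to 5.77.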

How the data were processed

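The authors hybridized biotin-labelled target to Affymetrix GeneChip Chicken Gene 1.0 ST arrays and processed the intensities by RMA (background correction, quantile normalization, summary per probe set). The deposited values are log2 values by the authors, rounded to 2 decimals, and were fitted without further filtering; 0 columns were unmatched. The sources used here name no genome build for the annotation. Names came from the annotation of the array, and 37 of 38 members were found in RefSeq (GRCg7b) by gene ID with the same symbol. *adamts7* has no gene ID. Sequences were not used here.

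Tissue means were fitted with limma 3.58.1 (R 4.3.3; lmFit, contrasts.fit, eBayes without a trend) over all 6 arrays, with 3 residual and 4.40 prior degrees of freedom. P-values were adjusted by Benjamini-Hochberg over 20804 probe sets within a comparison, and the threshold was 0.05. Intervals are unadjusted 95% intervals of the same fit. The fit was tested on simulated data before use. Figures were drawn with matplotlib 3.10.9.

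The members and lists were chosen with earlier results of these data known. Named with the value of each array were called members, *timp3* and the genes the paper names (*mmp11*, *adam22*). Other ADAMs, family extremes and list genes are given by difference. The remaining single values, array values of uncalled genes (*adam10*, *adamts10*, *adamts12*, *adamts20*, *mmp2*, *mmp28*) and those of *rhbdf1*, *comp* and *plat* were chosen after their values were seen. The alternatives were a fit of the 2 tissues compared, renormalization (quantile or cyclic loess), a robust eBayes with a trend, the brighter share of 0.5 of the probe sets, a log2 difference of at least 1, a gene's median over its probe sets, each array left out in turn (the remaining array then borrows the spread of the other tissues) and the replicate number as a block.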

Additional observations from a re-analysis of the deposited data

How the results depend on the processing

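The 8 members called in the proximal DA against the aorta became 2 to 7 when 1 array was left out, 5 being left when the first array of the aorta or of the proximal DA was dropped and 2 (*adamts8* and *adamtsl3*) when the second proximal DA array was. The 3 called in the distal DA were all lost without either aorta or either distal DA array and partly lost without either proximal DA array. In both comparisons with the aorta, fits without 1 array also called fewer probe sets in all, so such losses were not particular to the members. With all arrays, the distal DA had 5 members called over the brighter probe sets and 1 with a log2 difference of at least 1. Between the parts of the DA, 0 members were called by limma under every alternative that kept all arrays of these tissues. The replicate block left no call over all probe sets there, so its count of members could not differ. Fits without 1 DA array left few or no calls over all probe sets and say nothing about the members. With the replicate block, 8, 2 and 0 members were called in the 3 comparisons. Of the correlations between tissues of the differences between replicate 1 and replicate 2 (0.20, -0.03 and 0.32 over all probe sets), 1 was below 0, so a pairing by replicate number was not established, and it was not excluded either; the block took the calls between the parts of the DA over all probe sets from 52 to 0. In the comparisons in which they were called, no member and no second probe set of a member changed sign under any alternative. Uncalled differences are not covered by this statement. Apart from this block between the parts of the DA, called list genes were tried only with each array left out, and markers under none. Renormalization moved the median of all probe sets by at most 0.019. Values below the lower quartile limit what can be said of 7 members on every array and 2 on some.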
